A study of Mus musculus with 6 samples.

Results

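Transcripts of 10 acrosome and perinuclear theca genes were followed in the testes of Nsun7-/- and wild-type mice. The genes were Acr, Acrbp, Acrv1, Spam1, Zpbp, Zpbp2, Spaca1, Dpy19l2, Actl7a and Cylc2, chosen by symbol for their known roles, and all 10 were found among 34144 gene symbols. Total RNA was sequenced from 3 Nsun7-/- and 3 wild-type animals (genotype WT), each of strain C57Bl/6J and aged 3 months, with 1 library per mouse. The testes had been decapsulated, and no treatment, allele design or breeding background beyond strain and genotype is given in the sources used here. Nsun7 belongs to a family of putative RNA methyltransferases, and the series title links it to the fate of elongated spermatid transcripts. The whole transcriptome was compared between the genotypes, and the values here are those of the sperm head cap and its underlying cytoskeleton.

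The acrosome is a vesicle built from the Golgi apparatus of the round spermatid that spreads over the nucleus as a cap. It carries the hydrolytic enzymes and the zona pellucida binding proteins that the sperm uses at the egg. The perinuclear theca is a dense cytoskeletal layer that lies between the acrosome and the nuclear envelope and holds them together. Most of its genes are transcribed in round spermatids, and many of the mRNAs are stored before they are translated.

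None of the 10 genes passed the test for a difference between Nsun7-/- and wild-type testes. The test was edgeR's quasi-likelihood test over 21002 genes (p adjusted by Benjamini-Hochberg, threshold 0.05), and adjusted p for the 10 genes lay between 0.591 (Spaca1) and 0.928 (Zpbp). It called 119 genes in all, which is 0.567% of those tested (0.233% higher and 0.333% lower in Nsun7-/- testes). At an unadjusted p under 0.05 the count was 1 of 10 (Spaca1), against a background of 8.39%, and DESeq2 and limma voom called 0 of the 10. The median log2 fold change of the 10 was 0.057, against 0.015 over all genes tested, with 6 values above 0 and 4 below.

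The libraries held between 25014898 and 28558865 counts in Nsun7-/- mice and between 23480448 and 26102343 in wild-type mice. Nsun7 itself had 18.0, 17.8 and 25.1 CPM in knockout mice 1, 2 and 3, against 36.6, 35.7 and 37.2 CPM in wild-type mice 1, 2 and 3, where CPM is the count of a gene scaled to the size of its library, adjusted by TMM. Nsun7 had a log2 fold change of -0.84 (SE 0.15, edgeR adjusted p = 0.016), so by this test the transcript was lower and not lost. On the deposited TPM scale Nsun7 overlapped between genotypes, with 7.26, 7.49 and 12.7 TPM in knockout mice 1, 2 and 3, against 10.3, 12.8 and 15.04 TPM in wild-type mice 1, 2 and 3. Which part of Nsun7 was altered is not stated, and the level of its transcript is therefore a limited check of the labels. On the first principal component knockout mice 1, 2 and 3 stood at 0.981, 15.9 and 49.2, and wild-type mice 1, 2 and 3 at -38.3, -21.3 and -6.39. The genotypes did not overlap on it, so genotype and other differences along it cannot be told apart. Knockout mouse 3 and wild-type mouse 1 were its ends, and the row Rmrp took 0.985% and 4.85% of their counts. Of 11 marker lists, 10 had tested genes, and calls were made in 1 of these, the Leydig cell list (2 of 8 genes higher in Nsun7-/- testes, median log2 fold change 0.70, summed level 2219 to 4954 CPM in Nsun7-/- and 1760 to 2897 CPM in wild-type testes). The medians of the other somatic lists were -0.047 for Sertoli cells, -0.25 for peritubular myoid cells, 0.30 for macrophages and -0.0084 for the 1 tested blood gene. Those of the earlier germ cells were -0.10 for spermatogonia, -0.13 for leptotene and zygotene and -0.16 for pachytene spermatocytes, and no epididymal marker was tested. The 9 markers of round spermatids, the cells that build the acrosome, gave a median of 0.0088, with a summed level of 815 to 856 CPM in Nsun7-/- testes and 795 to 873 CPM in wild-type testes. The 10 elongating spermatid markers had a median of -0.22 with 0 called and 3 at an unadjusted p under 0.05, against 8.39% of all genes tested. In whole testis fewer cells of a type and less RNA per cell cannot be told apart.

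The sequences shown first are splice junctions that separate mRNA forms of Acrbp and Zpbp2 taken up in the isoform results below. They are not in each case the most abundant forms. The sequences come from the GENCODE M21 transcripts, whose lengths equal the deposited ones for these 4 transcripts, and each is written 5′ to 3′ with the bases after the end of the shared exon in capitals. In Acrbp the shared exon is exon 5, which Acrbp-202 joins to exon 6 and which Acrbp-205 reads on into intron 5 for 242 bases. Only the 13 coding ones are printed for Acrbp-205, since its reading frame ends there. In Zpbp2 the shared exon is exon 4, which Zpbp2-201 joins to an exon 5 of 219 bases that Zpbp2-202 skips.
Acrbp-202: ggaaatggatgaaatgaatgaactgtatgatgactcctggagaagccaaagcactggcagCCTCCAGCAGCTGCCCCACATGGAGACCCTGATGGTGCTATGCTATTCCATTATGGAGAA
Acrbp-205: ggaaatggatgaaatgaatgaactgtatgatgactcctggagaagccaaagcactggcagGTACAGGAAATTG
Zpbp2-201: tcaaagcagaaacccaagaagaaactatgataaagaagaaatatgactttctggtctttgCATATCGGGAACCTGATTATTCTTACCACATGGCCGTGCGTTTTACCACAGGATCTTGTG
Zpbp2-202: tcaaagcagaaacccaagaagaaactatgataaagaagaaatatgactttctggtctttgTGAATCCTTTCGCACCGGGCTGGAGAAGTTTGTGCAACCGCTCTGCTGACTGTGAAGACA

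By gene TPM, which sums all forms of a gene, the 10 genes spanned a wide range, with Acrbp far above the rest. On the deposited TPM scale, which is per length, the means over the 6 libraries ran from 578 for Acrbp to 1.22 for Cylc2. Actl7a (202 TPM), Acr (173), Zpbp2 (139) and Acrv1 (112) formed a group of abundant transcripts with overlapping ranges between neighbours. Dpy19l2 (41.9 TPM), Spaca1 (34.4) and Zpbp (22.5) formed a lower one, again with overlapping neighbours, and Spam1 stood at 4.12 TPM. No overlap was seen between Acrbp and Actl7a, between Acrv1 and Dpy19l2, between Zpbp and Spam1, or between Spam1 and Cylc2. Within single libraries the order was steadier than the ranges show, since Actl7a exceeded Acr and Zpbp2 exceeded Acrv1 in 6 of 6 libraries, while Acr exceeded Zpbp2 in 5 of 6. Acrbp alone made up 39.6% to 46.7% of the summed TPM of the 10 genes in Nsun7-/- testes and 44.7% to 46.5% in wild-type testes. Short forms held much of these levels. Acrbp-204, of 672 bases, had mean TPM of 241 in Nsun7-/- and 204 in wild-type testes. Acrbp-202, of 1883 bases, had 77.8 and 75.4 TPM. Zpbp2-206, a noncoding form of 484 bases, had 88.6 of 156 TPM in Nsun7-/- and 76.3 of 122 TPM in wild-type testes. The order is therefore not one of full-length mRNA.

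**Figure D1:**
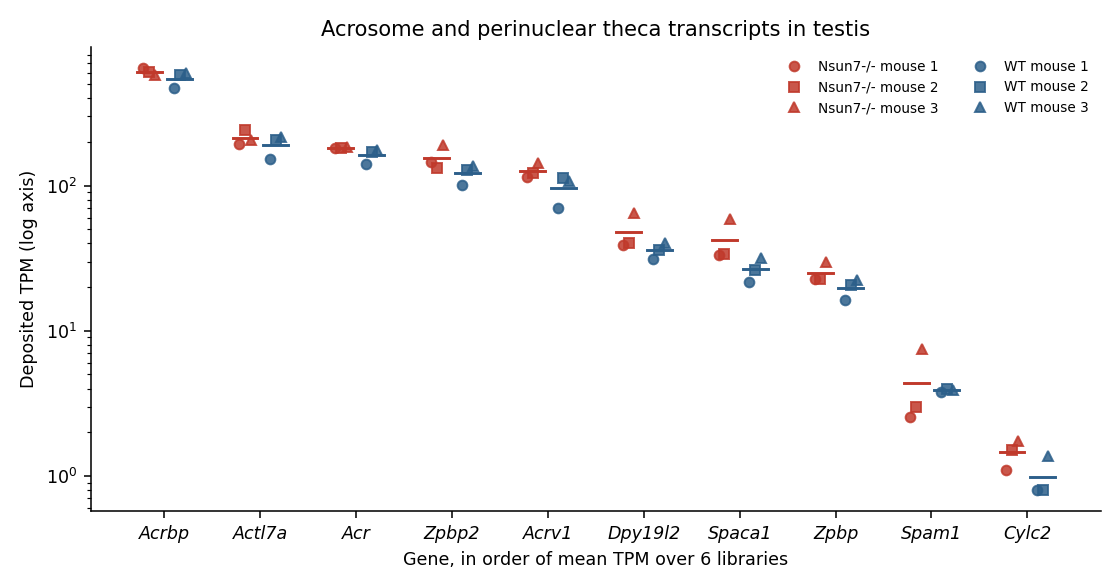
Deposited TPM (log axis) of the 10 genes in each library, in order of mean TPM, with Nsun7-/- in red left of wild type in blue; symbols mark the mouse number and lines the mean of 3 mice. Acrbp lies at 468 to 643 TPM and Cylc2 at 0.797 to 1.74 TPM, and the highest value of every gene but Acrbp and Actl7a belongs to knockout mouse 3. How often knockout mouse 3 was highest on this scale over all genes was not counted.

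Among the enzymes and matrix proteins of the acrosome, Acr encodes proacrosin, the precursor of the trypsin-like protease acrosin. It had 188, 172 and 148 CPM in knockout mice 1, 2 and 3, against 199, 186 and 168 CPM in wild-type mice 1, 2 and 3. The genotypes overlapped, and the log2 fold change was -0.12 (SE 0.13, edgeR adjusted p = 0.766). On the deposited TPM scale the direction was opposite, with 181, 182 and 186 TPM in knockout mice against 140, 171 and 177 TPM in wild-type mice, which did not overlap. On log2 TPM with a pseudocount of 1 the median of all genes was itself 0.24, and the row Rmrp took 0.985% to 1.76% of counts in knockout and 1.55% to 4.85% in wild-type mice. Deposited TPM did not overlap between genotypes for 4 of the 10 genes (Acr, Acrv1, Spaca1 and Zpbp, each higher in Nsun7-/- testes), against 20.1% of all genes tested, and CPM for 1 of the 10 (Spaca1), against 14.3%.

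Acrbp encodes the proacrosin binding protein, which keeps proacrosin packed and inactive in the forming acrosome. It had 499, 423 and 365 CPM in knockout mice 1, 2 and 3, against 536, 503 and 430 CPM in wild-type mice 1, 2 and 3. Knockout mouse 3 was lowest and wild-type mouse 1 highest, with the other libraries between them and no separation by genotype. The log2 fold change was -0.19 (SE 0.14, edgeR adjusted p = 0.702), with a 95% interval from -0.50 to 0.12, while log2 TPM gave 0.16, the opposite sign. Gm44597, annotated on the same strand at 5.43 to 10.95 CPM, and 4930557K07Rik on the other strand, at 0.616 to 0.974 CPM, overlap Acrbp. The ratio of Acr to Acrbp TPM, which is free of library scaling, was 0.281, 0.302 and 0.319 in knockout mice and 0.300, 0.298 and 0.297 in wild-type mice.

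Acrv1 encodes SP-10, a protein of the acrosomal matrix used as a marker of acrosome formation. Its level was 90.2, 88.6 and 88.3 CPM in knockout mice 1, 2 and 3, against 76.2, 96.8 and 80.5 CPM in wild-type mice 1, 2 and 3. All 3 knockout values lay inside the wild-type range (log2 fold change 0.075, SE 0.12, edgeR adjusted p = 0.858). Spam1 encodes PH-20, a hyaluronidase anchored to the sperm surface and the acrosomal membrane. It had 3.59, 3.30 and 7.40 CPM in knockout mice 1, 2 and 3, against 6.06, 5.27 and 5.20 CPM in wild-type mice 1, 2 and 3. The knockout libraries lay on both sides of the wild-type ones, with mice 1 and 2 below them and mouse 3 above (log2 fold change -0.20, SE 0.27, edgeR adjusted p = 0.829). Without knockout mouse 3 the log2 fold change of Spam1 was -0.68, and without knockout mouse 2 it was 0.0066, neither past the threshold. With 88 to 229 counts per knockout library and 134 to 136 per wild-type library its interval was wide, from -0.79 to 0.40.

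Zpbp and Zpbp2 encode related proteins of the acrosomal matrix that bind the zona pellucida and shape the acrosome. Zpbp had 79.0, 71.9 and 80.4 CPM in knockout mice 1, 2 and 3, against 76.1, 76.4 and 72.7 CPM in wild-type mice 1, 2 and 3. It was the steadiest of the 10, with an SD of 0.064 over the 6 libraries on the log2 scale and a log2 fold change of 0.039 (SE 0.11, edgeR adjusted p = 0.928). Spata48 on the other strand, at 7.69 to 12.2 CPM, overlaps Zpbp, as do the pseudogenes Gm12598 and Gm12599 and the same-strand snoRNA Gm26458. Strand use of the counting is not stated, so reads of Zpbp and Spata48 cannot be told apart where they overlap. Zpbp2 had 79.4, 72.1 and 102 CPM in knockout mice, against 75.9, 74.6 and 79.6 CPM in wild-type mice. Only knockout mouse 3 stood above the others, and the log2 fold change of 0.14 (SE 0.13, edgeR adjusted p = 0.758) became -0.023 without it. The Zpbp2 to Zpbp ratio of TPM was close in all libraries, at 6.40, 5.82 and 6.35 in knockout mice and 6.23, 6.14 and 6.17 in wild-type mice. On CPM the 2 genes were less alike, at 102 and 80.4 in knockout mouse 3 and 79.6 and 72.7 in wild-type mouse 3. Zpbp2 TPM includes the 484-base Zpbp2-206, at 96.6, 78.8 and 90.4 TPM in knockout mice and 67.0, 83.2 and 78.7 TPM in wild-type mice. The part of this form in the steady ratio was not tested.

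Spaca1, a membrane protein of the acrosome needed for its attachment to the nucleus, came nearest to a difference. It had 29, 26.6 and 39.9 CPM in knockout mice 1, 2 and 3, against 25.7, 24.5 and 25.9 CPM in wild-type mice 1, 2 and 3. All knockout values lay above all wild-type values, by a narrow margin in mouse 2 and a wide one in mouse 3. The log2 fold change was 0.33 (SE 0.15), with an edgeR adjusted p of 0.591, and a two-sided exact permutation test on CPM gave p = 0.1, the smallest that 3 against 3 allows. Without knockout mouse 3 the log2 fold change was 0.13, still above 0. Over 18 alternative settings it lay between 0.13 and 0.63, with adjusted p from 0.274 to 0.985.

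Dpy19l2 encodes a protein of the inner nuclear membrane that anchors the acrosome to the nucleus, and its loss causes round-headed sperm in mice and humans. It had 108, 102 and 140 CPM in knockout mice 1, 2 and 3, against 118, 107 and 105 CPM in wild-type mice 1, 2 and 3. Knockout mouse 3 was again alone at the top, and the log2 fold change of 0.088 (SE 0.13, edgeR adjusted p = 0.849) was -0.069 without it. Cypt4, annotated on the other strand and overlapping Dpy19l2, was present at 138 to 170 CPM, and the counting is not stated to use strand, so reads of such a pair cannot be told apart where they overlap. The Spaca1 to Dpy19l2 ratio of TPM was 0.860, 0.836 and 0.917 in knockout mice and 0.689, 0.734 and 0.792 in wild-type mice. This ratio did not overlap between genotypes (two-sided exact permutation p = 0.1, unadjusted, the smallest that 3 against 3 allows). It was picked from 11 ratios after their values were seen, so this p carries no weight as a test.

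Of the theca genes, Actl7a encodes an actin-like protein of the subacrosomal layer that is needed for acrosome attachment. It had 219, 250 and 183 CPM in knockout mice 1, 2 and 3, against 237, 249 and 230 CPM in wild-type mice 1, 2 and 3. Knockout mouse 3 was lowest and knockout mouse 2 highest of all 6 libraries, so the genotypes overlapped (log2 fold change -0.14, SE 0.13, edgeR adjusted p = 0.757; 0.17, the opposite sign, on log2 TPM). Cylc2 encodes cylicin 2, a basic protein of the posterior theca. It had 1.21, 1.61 and 1.42 CPM in knockout mice, against 1.36, 1.05 and 1.42 CPM in wild-type mice, from 30 to 44 counts per knockout library and 27 to 37 per wild-type library. The groups overlapped (log2 fold change 0.15, SE 0.27, edgeR adjusted p = 0.874). The level of Cylc2 refers to the deposited transcripts Cylc2-202 and Cylc2-203, and Cylc2-201, a coding form of 1641 bases in GENCODE M21, was not analysed here because its ID matched no transcript row.

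**Figure D2:**
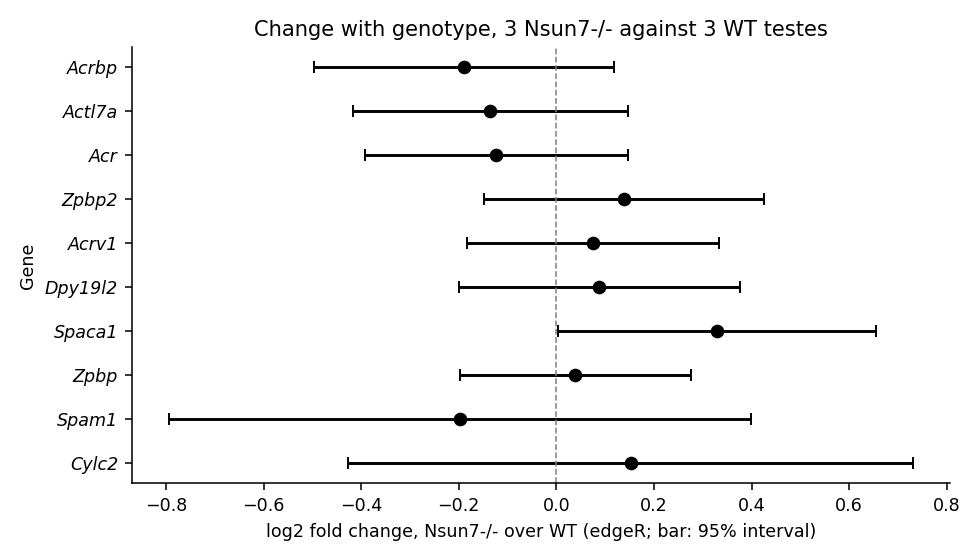
Log2 fold change of each gene, Nsun7-/- over wild type, with its 95% interval from edgeR's quasi-likelihood fit (3 mice per genotype). The estimates run from -0.20 (Spam1) to 0.33 (Spaca1), and the intervals of Spam1 and Cylc2 are the widest.

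How narrowly a change was bounded differed between the genes. The 95% interval of the fold, Nsun7-/- over wild type, ran from 0.872 to 1.21 for Zpbp and from 0.881 to 1.26 for Acrv1. For Acrbp it ran from 0.708 to 1.09, and for Acr from 0.762 to 1.11. It was widest for Spam1 (0.577 to 1.32) and Cylc2 (0.744 to 1.66). These intervals are not adjusted for the number of genes, and the Spaca1 one ran from 1.00 to 1.57. They hold for counts scaled by TMM. On log2 TPM with a pseudocount of 1, where the median of all genes was 0.24, estimates were 0.33 for Zpbp, 0.40 for Acrv1, 0.16 for Acrbp and 0.17 for Acr. These lay above the upper interval ends, which were 0.28, 0.33, 0.12 and 0.15 in log2 units. Those of Spam1, Cylc2 and Spaca1 lay inside their intervals.

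On the CPM scale knockout mouse 3 held the extreme value of most of the 10 genes. It was above every other library for 5 of them (Spam1, Spaca1, Zpbp2, Dpy19l2 and Zpbp) and below every other library for 3 (Acrbp, Actl7a and Acr). Over all genes tested, the CPM of knockout mouse 3 was highest for 31.2% and lowest for 28.7%. On the deposited TPM scale knockout mouse 3 was lowest for none of those 3, since it was the highest library for Acr (186 TPM) and lay inside the range of the others for Acrbp (583 TPM) and Actl7a (207 TPM). How often knockout mouse 3 was highest on that scale over all genes was not counted. Among the 10 genes it was highest for all but Acrbp and Actl7a. Relative to the mean of the other 5 libraries, its CPM was 1.58 times for Spam1, 1.52 times for Spaca1, 1.33 times for Zpbp2 and 1.30 times for Dpy19l2. It was 0.764 times for Acrbp, 0.771 times for Actl7a and 0.811 times for Acr. The Spaca1 to Acrbp ratio of TPM was 0.102 in knockout mouse 3, against 0.0522 and 0.0558 in knockout mice 1 and 2 and 0.0459 to 0.0533 in wild-type mice. In knockout mouse 3 the median of centred log2 CPM was -0.029 over round spermatid markers, -0.23 over elongating spermatid markers and 0.25 over genes of Golgi traffic to the acrosome; their part in these values was not tested. Without knockout mouse 3 the median log2 fold change of the 10 genes was -0.027.

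**Figure D3:**
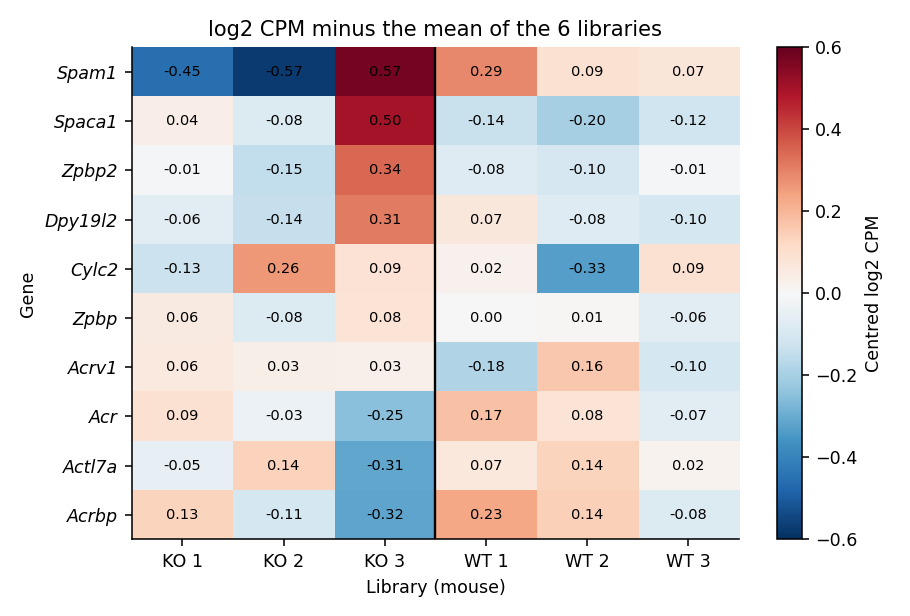
Log2 CPM of each gene minus its mean over the 6 libraries, with the 3 Nsun7-/- mice (KO) left of the 3 wild-type mice (WT) and genes ordered by knockout mouse 3. Knockout mouse 3 runs from 0.57 for Spam1 to -0.32 for Acrbp, while the Zpbp row stays between -0.081 and 0.082.

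By the root mean square difference of centred log2 CPM over the 6 libraries, the closest pairs among the 10 genes were Acr with Acrbp (0.057) and Zpbp2 with Dpy19l2 (0.0756). The RefSeq promoters of the second pair (GRCm38.p6) are shown as the 250 bases before the gene start, 5′ to 3′ on the gene's strand, with TGACG, the core of the cAMP response element, in capitals where it occurs on either strand. CREM, a factor that binds this element, drives many spermatid genes in mice. The Zpbp2 window is chr11:98550847-98551096 on the plus strand and the Dpy19l2 window chr9:24696294-24696543 on the minus strand.
Zpbp2: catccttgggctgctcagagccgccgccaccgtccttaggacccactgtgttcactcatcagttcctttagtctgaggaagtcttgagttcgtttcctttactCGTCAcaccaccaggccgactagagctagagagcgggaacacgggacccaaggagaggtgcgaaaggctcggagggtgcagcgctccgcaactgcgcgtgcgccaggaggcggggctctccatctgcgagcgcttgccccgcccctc
Dpy19l2: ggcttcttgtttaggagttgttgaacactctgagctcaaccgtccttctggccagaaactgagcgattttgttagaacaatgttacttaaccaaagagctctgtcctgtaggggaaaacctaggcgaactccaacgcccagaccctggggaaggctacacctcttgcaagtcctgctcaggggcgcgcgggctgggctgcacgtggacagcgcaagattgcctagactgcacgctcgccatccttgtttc
Zpbp2 held 1 such core, starting 147 bases before the gene start and read as CGTCA on the strand shown, and the letters were not found in the Dpy19l2 window. Windows were matched for 8 of the 10 genes. It stood in 3 of these 8 (Acrbp, Spaca1 and Zpbp2), against 17.8% of 32841 RefSeq windows of the same length. The full element TGACGTCA stood in 0 of 8, against 1.55% of windows. The other motifs searched were the TATA box (TATAAA), in 0 of 8 against 12.4% of windows, and the CCAAT box, in 1 of 8 against 33.9%. All searches covered both strands. A match describes letters in the window and not binding.

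No single mRNA form of the 10 genes passed the test between genotypes. Of 31 deposited transcripts of the 10 genes, 26 were tested, and 0 passed the edgeR test on rounded estimated counts, against a background of 0.0272% of 58773 transcripts. At an unadjusted p under 0.05 the count was 1 (Acr-203, log2 fold change -0.47, edgeR adjusted p = 0.932), against 4.76% of all transcripts, and DESeq2 called 0. Transcripts varied more between mice than genes did, with a biological coefficient of variation of 43.0% against 14.9%. On simulated counts the transcript test recovered 14% of changes of 1 log2 unit, so changes of that size could be missed. Zpbp, Dpy19l2 and Actl7a were each represented by 1 transcript, so their gene and transcript levels are the same.

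Acrbp is known in mice to give a full-length mRNA and a shorter one that keeps intron 5, and both were abundant. Acrbp-202, with 10 exons and 540 codons, held 24.4%, 21.1% and 25.3% of the estimated counts of the gene in knockout mice 1, 2 and 3, against 25.3%, 24.9% and 24.4% in wild-type mice 1, 2 and 3. Acrbp-205, with 5 exons and 316 codons, held 44.4%, 46.3% and 45.8% in knockout mice, against 48.3%, 47.7% and 41.9% in wild-type mice. The TPM of Acrbp-205 was 2.51 ± 0.284 times that of Acrbp-202 in Nsun7-/- testes and 2.38 ± 0.142 times in wild-type testes (SD, n = 3 each; two-sided exact permutation p = 0.7). The remaining counts fell mostly on the short forms Acrbp-204 (21.3% ± 1.85 in Nsun7-/- and 19.7% ± 2.20 in wild-type testes) and Acrbp-203 (8.99% ± 1.43 in Nsun7-/- and 8.78% ± 2.70 in wild-type testes), again in SD with 3 mice each.

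Zpbp2 was read mainly from 4 transcripts. Zpbp2-203 held 34.2% ± 6.17 of its counts in Nsun7-/- testes and 33.6% ± 1.37 in wild-type testes, and the exon-skipping Zpbp2-202 held 23.9% ± 1.55 in Nsun7-/- and 25.7% ± 1.62 in wild-type testes (SD, n = 3 each). Zpbp2-201 varied most, at 11.2%, 10.4% and 26.7% in knockout mice 1, 2 and 3, against 3.82%, 9.70% and 17.1% in wild-type mice 1, 2 and 3. The high values were those of mouse 3 in both genotypes and the ranges overlapped (log2 fold change 0.85, SE 0.69, edgeR adjusted p = 0.932). The log2 fold change of Zpbp2-201 was 0.047 with knockout mouse 3 left out, 0.46 with wild-type mouse 1 left out and 1.48 with mouse 3 of the wild type left out. Of the Zpbp2 TPM in transcripts that span exon 4 to exon 6, the part with exon 5 was 60.7%, 65.0% and 64.8% in knockout mice, against 53.9%, 57.7% and 63.8% in wild-type mice (two-sided exact permutation p = 0.2). Zpbp2-206, a fragment of 484 bases without a coding part, held 25.5% ± 6.87 of the counts in Nsun7-/- and 30.0% ± 4.76 in wild-type testes (SD, n = 3 each).

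In Acr, the full coding transcript Acr-201 held 76.9%, 78.7% and 77.8% of the counts in knockout mice 1, 2 and 3, against 75.5%, 72.3% and 75.8% in wild-type mice 1, 2 and 3. These shares did not overlap (two-sided exact permutation p = 0.1, the smallest possible), and this was the 1 without overlap among 18 transcript shares compared, with p = 0.9 after adjustment over the 18. Acr-204, annotated as a target of nonsense-mediated decay, held 18.0% ± 1.31 in Nsun7-/- testes and 20.4% ± 1.99 in wild-type testes (SD, n = 3 each; two-sided exact permutation p = 0.2). Acrv1-201 held 98.5% to 98.9% of Acrv1 counts in Nsun7-/- testes and 98.6% to 98.9% in wild-type testes. Spaca1-201 held 90.6% to 96.8% of Spaca1 counts in Nsun7-/- testes and 91.6% to 95.3% in wild-type testes.

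Shares of the low genes were unsteady. Spam1-202 took 65.8%, 6.16% and 27.2% of Spam1 counts in knockout mice 1, 2 and 3, against 1.54%, 10.4% and 37.5% in wild-type mice 1, 2 and 3, so single mice of 1 genotype differed more than the genotypes did. Spam1-202 and Spam1-203 have the same coding length of 1536 bases, and kallisto divides reads that fit several forms by estimate. Spam1-201 and Spaca1-203 were listed at 0 in all 6 libraries. Cylc2-203 held 79.2%, 71.1% and 85.8% of Cylc2 counts in knockout mice, against 63.4%, 65.3% and 79.0% in wild-type mice, from 17.6 to 37.8 estimated counts.

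**Figure D4:**
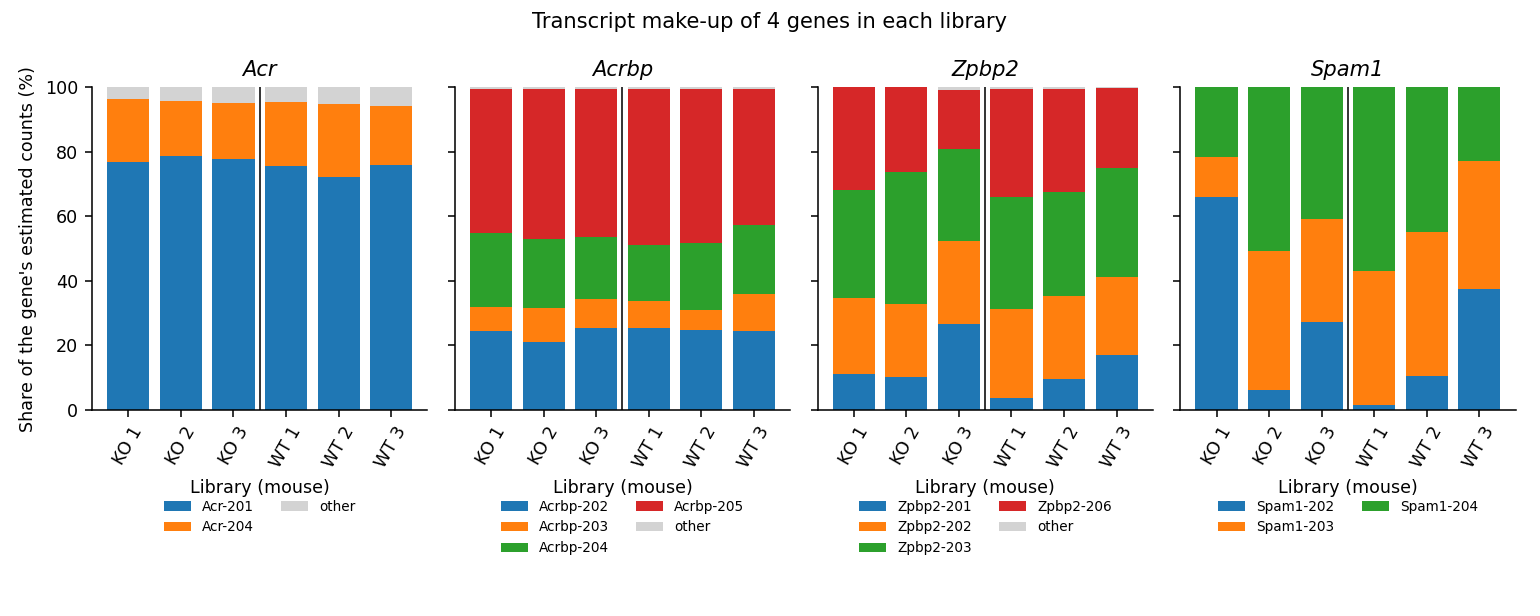
Share of the estimated counts of Acr, Acrbp, Zpbp2 and Spam1 held by each transcript in the 3 Nsun7-/- (KO) and 3 wild-type (WT) libraries; grey sums transcripts under 5%. Acr-201 holds 72.3% to 78.7% in all mice, Zpbp2-201 is highest in knockout mouse 3 (26.7%), and the Spam1 shares shift from mouse to mouse.

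The wider set of acrosome and theca genes, which includes the 10 above, also gave a count of 0. Across 6 role lists with 97 different genes, 90 were tested, and 0 passed edgeR's adjusted threshold, against a background of 0.567%, and 0 were called by DESeq2. At an unadjusted p under 0.05 the count was 4 of 90, Spaca1 among them, against 8.39% of all genes tested. Their median log2 fold change was 0.035, against 0.015 over all genes tested. By CPM knockout mouse 3 was the highest library for 37 of the 90, against 31.2% of all genes tested.

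Among 19 tested genes of acrosomal enzymes and matrix, 0 passed and the median was 0.024. Apart from the 10 genes above, the smallest p belonged to Spink2, an inhibitor that guards against acrosin-like activity (132 ± 32.3 CPM in Nsun7-/- and 164 ± 31.3 CPM in wild-type testes, SD, n = 3 each; log2 fold change -0.31, edgeR adjusted p = 0.65), and to Pcsk4, a proprotein convertase of sperm (-0.21, edgeR adjusted p = 0.668). Of 10 genes of acrosomal membranes and the equatorial segment 0 passed (median -0.034), with Tmem190 at -0.24 (edgeR adjusted p = 0.697) and Eqtn, the equatorial segment protein equatorin, at -0.25 (edgeR adjusted p = 0.749). Of 9 genes of acrosome attachment and the acroplaxome 0 passed (median 0.045), with the motor Myo5a at 0.17 (edgeR adjusted p = 0.715) and Sun5 at -0.15 (edgeR adjusted p = 0.749). The signs of Spink2, Pcsk4, Tmem190, Eqtn and Sun5 turned in at least 1 of the 18 alternative settings.

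Of 14 perinuclear theca genes 0 passed (median 0.012). Cylc1, the paralog of Cylc2, was at 0.727, 0.937 and 0.678 CPM in knockout mice 1, 2 and 3, against 1.45, 1.12 and 1.00 CPM in wild-type mice 1, 2 and 3. These values did not overlap, and the log2 fold change was -0.60 (SE 0.31, edgeR adjusted p = 0.631). Stat4 was at 0.26 (edgeR adjusted p = 0.65) and at 0.060 without knockout mouse 3, which had 90.7 CPM.

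Of 26 genes of vesicle traffic from the Golgi to the acrosome 0 passed, with a median of 0.11. Smap2, which acts in clathrin-dependent vesicle budding and acrosome formation in mice, had 51.8 ± 2.15 CPM in Nsun7-/- testes and 42.5 ± 6.40 CPM in wild-type testes (SD, n = 3 each; log2 fold change 0.29, edgeR adjusted p = 0.587). Agfg1, needed for fusion of proacrosomal vesicles in mice, was at 0.29 (edgeR adjusted p = 0.596) and at 0.13 without knockout mouse 3. Without wild-type mouse 2 Smap2 was at 0.16. By CPM knockout mouse 3 was highest for 16 of the 26, against 31.2% of all genes tested.

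Of 15 tested genes of acrosomal exocytosis 0 passed (median -0.10). Pkdrej, a polycystin-like receptor that times the acrosome reaction in mice, had the smallest p of the wider set. It had 116, 127 and 159 CPM in knockout mice 1, 2 and 3, against 86.4, 91.3 and 105 CPM in wild-type mice 1, 2 and 3. All knockout values lay above all wild-type values (log2 fold change 0.51, SE 0.14, edgeR adjusted p = 0.191). Plcd4, a phospholipase that acts in the acrosome reaction in mice, was at 0.42 (SE 0.18, edgeR adjusted p = 0.567), with 55.4 ± 14.4 CPM in Nsun7-/- testes and 41.3 ± 7.24 CPM in wild-type testes (SD, n = 3 each). Without knockout mouse 3 the log2 fold change of Plcd4 was 0.19.

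**Figure D5:**
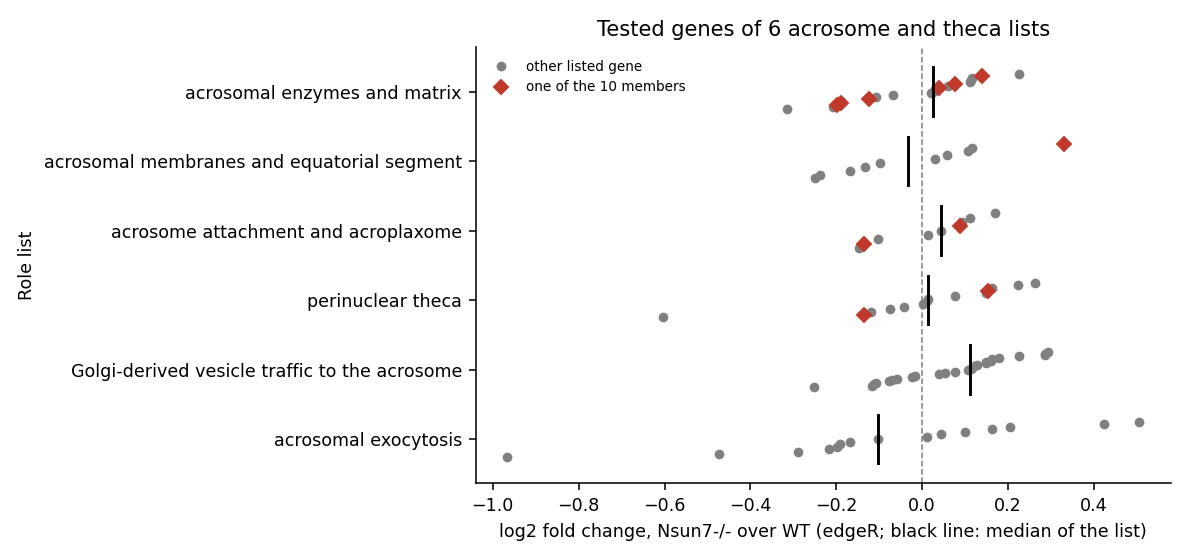
Log2 fold change, Nsun7-/- over wild type, of each tested gene in 6 acrosome and theca lists; red diamonds are the 10 genes described in full, grey points other listed genes, and black lines list medians. The medians run from -0.10 for exocytosis to 0.11 for Golgi traffic, and no point passed the adjusted threshold.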

How the data were processed

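RNA from decapsulated testes was depleted of ribosomal and globin RNA and made into libraries with the NEBNext Ultra II RNA kit, per the labels' protocols. Reads were quantified with kallisto 0.50.1 on mm39, per the submitters' processing notes; neither the annotation release, nor the strand setting, nor how transcripts were joined to symbols is given in the sources used here. Deposited by the authors were estimated counts and TPM per gene symbol, with the same and a length per transcript. TPM fixes each library's total. The deposited gene counts of the 10 members equalled the sums of their transcript estimates after rounding.

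The tests, on gene counts and on rounded transcript estimates, used edgeR 4.0.16 under R 4.3.3: TMM, filterByExpr (minimum count 10, minimum total 15), robust quasi-likelihood fit on genotype, Benjamini-Hochberg adjustment over all features tested. SEs are the log2 fold change over the square root of F, and positive values mean higher in Nsun7-/- testes. Alternatives used DESeq2 1.42.0 and limma 3.58.1. After the real fits, the same test was run on simulated counts, whose means, library sizes and dispersion trend came from those fits. Changes were placed only in features with a mean above 1 CPM, and no outlying library was simulated. The gene test recovered 38% of changes of 0.585 log2 units and 86% of changes of 1. The transcript test recovered 0% and 14%, so its count of 0 says little about changes of that size. Spam1 and Cylc2 had the fewest counts of the 10 genes.

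The members, the 6 role lists, the 11 marker lists and the tests were chosen with earlier results of these data known. Named genes were all 10 members, the 2 others of smallest p in each role list, and transcripts with at least 5% of a gene's counts. Transcripts were joined to symbols by GENCODE M21 IDs (GRCm38), used for names, exon structure and overlaps.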

Additional observations from a re-analysis of the deposited data

How the results depend on the processing

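The count of 0 among the 10 genes held in all 18 alternatives: other scalings, filters and tests, log2 TPM, each library left out, 2 left out together, and mouse number as a block. No member transcript passed in any of the 10 alternatives run for transcripts. Same-numbered mice did not deviate together in every pair (r = 0.18, -0.0048 and 0.20 for numbers 1, 2 and 3 across genes). Between mice of different numbers r ran from -0.24 to 0.056, so numbers 1 and 3 lay above that range and number 2 inside it. The labels do not pair the mice, and the numbers were not treated as pairs. With the mouse number as a replicate block all the same, 1 role list gene passed, Pkdrej (log2 fold change 0.50, adjusted p = 0.0149), which was at adjusted p of 0.0502 to 0.801 in the other alternatives. The count over all genes, 119, was 331 with the block, 213 with DESeq2, 180 with no low-count filter, and 61, 68 and 63 on log2 TPM with pseudocounts of 1 and 0.1 and on centred log2 TPM; leaving out single libraries gave 67 to 166, with 67 where wild-type mouse 1 was dropped, 78 where mouse 2 of that genotype was and 78 where mouse 3 was. The members' median, 0.057, was 0.32 and 0.35 on log2 TPM with pseudocounts of 1 and 0.1, where the median of all genes was 0.24 and 0.30, and it ranged from -0.027 (without knockout mouse 3) to 0.064 over single libraries left out. On log2 TPM with pseudocounts of 1 and 0.1 the sign turned for Acr (0.17 and 0.17), Acrbp (0.16 and 0.16) and Actl7a (0.17 and 0.17), and with 1 for Spam1 (0.011). With knockout mouse 3 and wild-type mouse 1 both dropped it turned for Acr (0.022), Zpbp2 (-0.025) and Dpy19l2 (-0.0091). Over single libraries left out the log2 fold change ranged from -0.68 to 0.0066 for Spam1, from -0.023 to 0.24 for Zpbp2, from -0.069 to 0.17 for Dpy19l2 and from -0.0033 to 0.18 for Acrv1. Among transcripts it ranged from -0.16 to 0.032 for Acr-201, -0.27 to 0.11 for Acrbp-204, -0.0035 to 0.18 for Acrv1-201, -0.059 to 0.16 for Dpy19l2-201, -0.65 to 0.60 for Spaca1-202 (-0.030 with the replicate block), -0.91 to 0.026 for Spam1-204, -0.0070 to 0.076 for Zpbp-201 and -0.16 to 0.17 for Zpbp2-202. The cause of these turns was not tested. Spam1 and Cylc2 had the lowest counts, 88 to 229 and 30 to 44 per knockout library against 134 to 136 and 27 to 37 per wild-type library.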

Other observations

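By the same measure of likeness, the 5 genes with a mean of at least 10 CPM whose centred profile lay closest to the mean profile of the 10 members were Fip1l1 (0.0146), Ankrd17 (0.0172), Gclc (0.0189), Ubn1 (0.0198) and 1700006J14Rik (0.0202), in root mean square log2 units over 6 libraries and 10621 genes. This is a description of these libraries only.

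Crisp1, a gene of the epididymis, had 0.162, 0.0749 and 0 CPM in knockout mice 1, 2 and 3, against 29.4, 0.116 and 0.0770 CPM in wild-type mice 1, 2 and 3. Of the other 5 epididymal markers in that list, Lcn5, Lcn8 and Lcn9 had no count in any of the 6 libraries. Defb42 had 0.202, 0.150 and 0.614 CPM in knockout mice 1, 2 and 3, against 0.452, 0.155 and 0.231 CPM in wild-type mice 1, 2 and 3. Rnase9 had 0, 0 and 0.0646 CPM in knockout mice 1, 2 and 3, against 0.543, 0 and 0 CPM in wild-type mice 1, 2 and 3. The value in wild-type mouse 1 was noticed after the marker sums were seen.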
